A study of Mus musculus with 9 samples.

Results

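The G1 cyclins, their kinases and the RB family were followed through 9 RNA-sequencing samples of myeloid-derived suppressor cells (MDSCs), immature myeloid cells that expand in tumour-bearing hosts and restrain immune responses. The 10 genes, chosen by symbol, were Ccnd1, Ccnd2, Ccnd3, Ccne1, Cdk4, Cdk6, Cdk2, Rb1, Rbl1 and Rbl2, and all 10 were found among the 23284 gene symbols measured. On the deposited scale, WT Mo-MDSCs had less Ccnd1, Ccnd2 and Rbl2 RNA and more Cdk6, Rb1 and Rbl1 RNA than WT PMN-MDSCs. No member passed the test between Mo-MDSCs labelled p16/p21 double knockout (DKO) and WT Mo-MDSCs.

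D-type cyclins are induced by growth-factor signals and activate CDK4 and CDK6, and cyclin E activates CDK2. The active kinases phosphorylate RB and its relatives p107 (Rbl1) and p130 (Rbl2), the pocket proteins, which then release E2F transcription factors and allow entry into S phase. The INK4 inhibitors, p16 among them, bind CDK4 and CDK6, whereas p21 and p27 bind cyclin-CDK complexes. Myeloid precursors lose proliferative capacity as they mature, and CDK6 has a known role in holding back myeloid differentiation.

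All samples came from spleens of mice that carried a tumour of SCT cells, a spindle cell tumour line derived from a p16-deficient mouse, and the cells were purified 3 weeks after tumour inoculation. The 3 groups had 3 samples each. WT mice gave the polymorphonuclear (PMN-) MDSCs and the first group of monocytic (Mo-) MDSCs, and mice labelled p16/p21 double knockout gave the second Mo-MDSC group. The labels give an age of 3 weeks for every sample, which equals the time since inoculation, whereas the study's methods describe the mice as adults, so the age at collection is not settled here. They give the strain C57BL/6J for both WT groups and C57BL/6 for the DKO group. Cells were separated with a magnetic kit on Gr-1 and Ly6G, and PMN-MDSCs from DKO mice were not analysed here. The titles and genotypes of all 3 DKO samples name p16 and p21, but the free-text descriptions of replicates 2 and 3 name p22 and p23 in place of p21. The labels do not say which mouse gave which sample or whether mice were pooled, so p-values measure only the spread between these samples. The library numbers in the labels place replicate 1 of each group in a different series from replicates 2 and 3, and what the series stand for is not stated.

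The samples summed to between 494252 and 916642 FPKM, the fragments of a gene scaled for its transcript length and the size of the library, with 11299 to 11418 genes at 1 FPKM or more. Relative depth ranged from 0.809 to 1.31 of that of WT Mo-MDSC replicate 1. Most listed markers of both cell types followed the labels between the WT groups. Of 8 neutrophil markers 5 were lower in WT Mo-MDSCs, and of 7 monocyte markers 6 were higher (adjusted p below 0.05, limma). The neutrophil markers Ngp, Camp and Ltf and the monocyte marker Csf1r overlapped between these groups. Ngp lay at 2699 to 11180 FPKM in PMN-MDSCs and at 2349 to 7617 FPKM in WT Mo-MDSCs. Csf3r, the G-CSF receptor of neutrophils, lay at 1347 to 1579 FPKM in the PMN-MDSC samples and at 70.4 to 91.1 FPKM in the WT Mo-MDSC samples, and the monocyte chemokine receptor Ccr2 at 2.36 to 2.51 and 281 to 362 FPKM. Every sample also held RNA of other spleen cells. The B-cell gene Cd79a lay between 353 and 588 FPKM and the macrophage complement gene C1qa between 670 and 1280 FPKM over the 9 samples. In bulk samples, fewer cells of a type and less RNA per cell cannot be told apart.

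The deleted genes were examined first. Cdkn1a, which encodes p21, measured 8.18, 6.46 and 8.04 FPKM in WT Mo-MDSC replicates 1 to 3 and 5.55, 8.52 and 6.00 FPKM in the samples labelled DKO. The ranges overlapped, and the log2 fold change was -0.19 (SE 0.18, adjusted p = 0.637, limma). In PMN-MDSCs Cdkn1a lay between 1.83 and 2.95 FPKM, below both Mo-MDSC groups. Cdkn2a, whose symbol covers p16 and the ARF transcript that shares its exons, was at or below 1.47 FPKM in all 9 samples. It measured 0.718, 0.772 and 0.432 FPKM in WT Mo-MDSC replicates 1 to 3. In the samples labelled DKO it measured 0.258, 0.586 and 0.00 FPKM, and these ranges overlapped. A gene-level FPKM does not show which exons were read, so neither gene checks the DKO label here, and the samples are called Mo-MDSCs labelled DKO throughout.

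The RB family and the kinases lie on separate chromosomes apart from Cdk2 and Cdk4, both on chromosome 10 (mm10, GENCODE M21 gene bounds chr10:128697939-128705031 and chr10:127063534-127067920). Cdk6 lies at chr5:3341485-3531008, Rb1 at chr14:73183673-73325822, Rbl1 at chr2:157145893-157204534 and Rbl2 at chr8:91070057-91123844. Of the cyclins, Ccnd1 lies at chr7:144929931-144939925, Ccne1 at chr7:38097984-38107534, Ccnd2 at chr6:127125162-127152193 and Ccnd3 at chr17:47505051-47599691. E2F motifs (TTTCGCGC, TTTGGCGC, TTTCCCGC and TTTGCCGC, searched on both strands) were sought in the 250 bases before each RefSeq start (GRCm38.p6), since several genes of G1 control are themselves E2F targets. RefSeq promoters matched 7 of the 10 members with 8 starts, and 2 of these 8 held a motif, beside 1.86% of all 32851 promoters. The share was 4.04% among 8432 expressed genes. The first was Rbl1, in which the motif TTTCGCGC began 18 bases before the start. The second was Cdk2, in which GCGGGAAA, the reverse complement of TTTCCCGC, began 140 bases before the start. Both windows are shown on the gene's own strand (minus), chr2:157204535-157204784 for Rbl1 and chr10:128705052-128705301 for Cdk2, with the motif in capitals.
Rbl1: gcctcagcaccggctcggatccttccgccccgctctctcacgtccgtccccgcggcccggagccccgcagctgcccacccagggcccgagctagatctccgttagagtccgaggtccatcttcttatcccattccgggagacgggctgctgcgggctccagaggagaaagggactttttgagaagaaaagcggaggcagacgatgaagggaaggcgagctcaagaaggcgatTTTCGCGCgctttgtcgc
Cdk2: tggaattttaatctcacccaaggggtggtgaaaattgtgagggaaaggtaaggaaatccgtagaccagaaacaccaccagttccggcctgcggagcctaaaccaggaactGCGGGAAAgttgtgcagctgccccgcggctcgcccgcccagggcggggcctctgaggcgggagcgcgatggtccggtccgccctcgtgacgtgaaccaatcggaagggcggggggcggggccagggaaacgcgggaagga
A match is a run of letters and no measurement of binding. No motif of this set was in the windows of Ccnd3, Ccne1, Cdk4, Cdk6 or Rbl2, and Ccnd1, Ccnd2 and Rb1 had no entry.

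Per unit of length, Ccnd3 was the most abundant member in each group. Its mean was 145 ± 34.2 FPKM (SD, n = 3) in PMN-MDSCs, 101 ± 15.2 FPKM for the WT Mo-MDSC group and 76.5 ± 19.1 FPKM for the group labelled DKO. Cdk4 followed with means of 63.6, 64.3 and 67.5 FPKM, and in the DKO-labelled group its range overlapped that of Ccnd3. Cdk6 was lowest in each group, at 2.26 ± 0.361, 3.70 ± 0.503 and 5.31 ± 0.874 FPKM. Between these ends, Cdk2, Rb1, Ccnd2 and Rbl2 lay at 17.4 to 31.1 FPKM as group means, and Rbl1, Ccne1 and Ccnd1 at 5.52 to 15.2 FPKM. Neighbours that were not separated beyond their spread were Rbl2, Cdk2 and Rb1 and also Ccne1, Rbl1 and Ccnd1 in PMN-MDSCs. In WT Mo-MDSCs they were Cdk2 with Rb1 and Rbl1 with Ccne1, and in the DKO-labelled group Rb1 with Cdk2, Ccnd2 with Rbl2 and Ccne1 with Rbl1. All 10 members were above 1 FPKM in all 9 samples, so all 10 passed the filter on low values. The plot of FPKM by sample shows these orders.

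**Figure D1:**
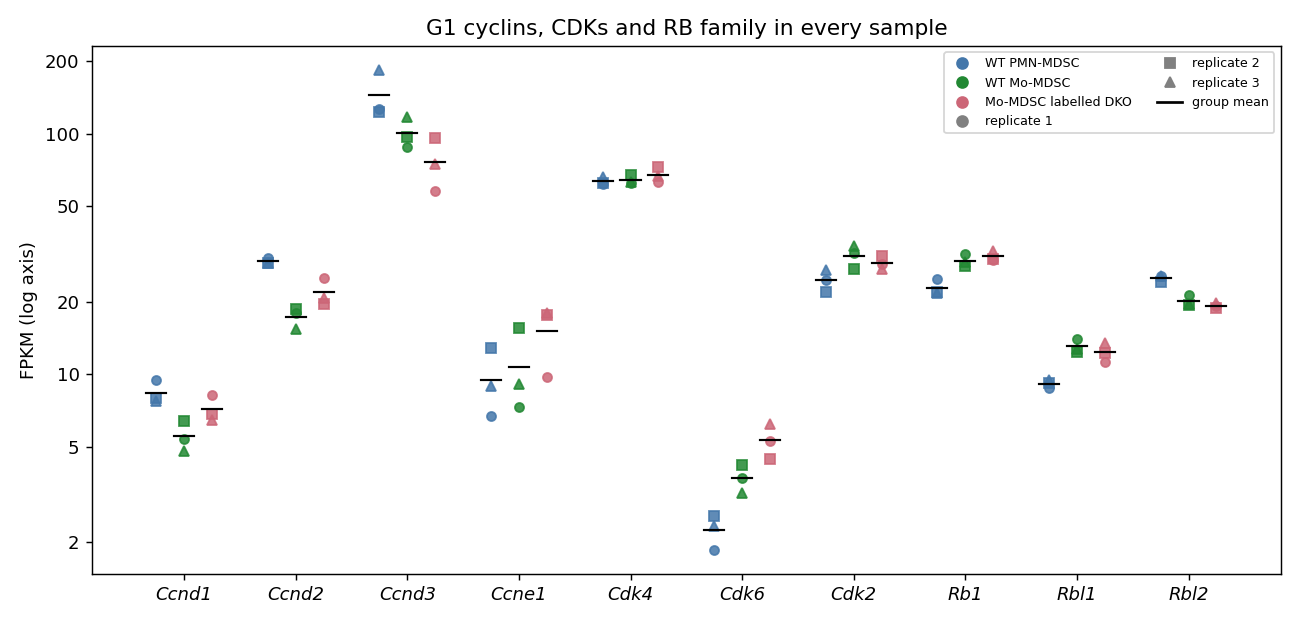
FPKM of the 10 members (log axis) in every sample, with symbols for replicates 1 to 3, colours for the 3 groups and a bar for the group mean. Ccnd3 lies highest and Cdk6 lowest in each group, and Ccnd2 in WT Mo-MDSCs (15.4 to 18.7 FPKM) is below all PMN-MDSC values (28.9 to 30.3 FPKM).

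The first comparison asked how the G1 machinery differed between the monocytic and the granulocytic cells of WT mice. WT Mo-MDSCs were lower in 3 members, where 20.6% of 11491 genes tested were lower, and higher in 3 members, where 18.5% of genes were higher. The ranges of the groups were apart for 8 members, 4 of them higher and 4 lower in WT Mo-MDSCs, beside 26.2% of genes apart and higher and 26.4% apart and lower. The median log2 fold change of the members was 0.08, beside 0.01 over all genes tested. On values rescaled to equal totals the median of all genes shifted to 0.45, and Ccnd1, Ccnd2 and Rbl2 were not called (adjusted p = 0.519, 0.105 and 0.434). Relative to that median their log2 fold changes were -0.61, -0.78 and -0.33. Without replicate 2 of each group, which held the most erythroid RNA, 1 member was called higher (Rbl1) and 2 lower (Ccnd1 and Ccnd2). Of all 11543 genes tested that way, 1385 were called higher and 1838 lower, beside 2121 and 2371 of 11491 with all samples. That comparison has 2 samples against 2, and the members no longer called kept log2 fold changes of 0.70 for Cdk6, 0.39 for Rb1 and -0.32 for Rbl2, beside 0.69, 0.37 and -0.32 with all samples. The 3 WT Mo-MDSC samples enter both comparisons, which are therefore not independent of each other.

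On the deposited scale Ccnd2, a D-type cyclin, showed the largest log2 fold change of the 10 members. It measured 30.3, 28.9 and 29.2 FPKM in the 3 PMN-MDSC samples and 18.0, 18.7 and 15.4 FPKM in the 3 WT Mo-MDSC samples. No sample of either group reached the other, and the log2 fold change was -0.76 (SE 0.09, adjusted p = 0.000789). Cdk6 was larger in size without WT Mo-MDSC replicate 3 (0.79 against -0.68) and without PMN-MDSC replicate 2 (0.79 against -0.78). On rescaled values Cdk6 (1.13), Rbl1 (0.95), Rb1 (0.81) and Cdk2 (0.78) exceeded Ccnd2 (-0.32). Ccnd1 measured 9.43, 7.94 and 7.76 FPKM in the PMN-MDSC samples and 5.40, 6.38 and 4.79 FPKM in the WT Mo-MDSC samples. Its groups were likewise apart, with a log2 fold change of -0.60 (SE 0.14, adjusted p = 0.0121), and in replicates 2 and 3 alone this was -0.50 with adjusted p = 0.093. Ccnd3 measured 127, 123 and 184 FPKM against 88.3, 97.4 and 118 FPKM. The lowest PMN-MDSC sample was above the highest WT Mo-MDSC sample, but the spread was wide and the log2 fold change of -0.50 (SE 0.18) had an adjusted p of 0.0615. With the replicate number as a block, which matches samples of the same number, the adjusted p for Ccnd3 was 0.00136. The summed FPKM of the D-type cyclins was 183 ± 33.5 for the PMN-MDSC group and 124 ± 13.3 for the WT Mo-MDSC group, with ranges apart (exact permutation p = 0.1, two-sided, the smallest p that 3 against 3 samples allow).

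Markers of other cells moved with these cyclins. The summed FPKM of 5 B-cell markers lay between 1434 and 1635 in PMN-MDSCs and between 1020 and 1148 in WT Mo-MDSCs, and 2 of the 5 (Cd79a and Cd79b) were lower in WT Mo-MDSCs by the test. Of 5 red pulp macrophage markers 4 were lower (C1qa, C1qb, C1qc and Vcam1), and their sum lay between 4926 and 5830 FPKM against 3049 and 3911 FPKM. All of these markers were above 1 FPKM in some sample of each group. For Ccnd3, the highest sample of each group was also the highest for the neutrophil gene S100a8, with 100400 FPKM in PMN-MDSC replicate 3, 23350 FPKM in WT Mo-MDSC replicate 3 and 6124 FPKM in DKO-labelled replicate 2. The part of these cells in the cyclin values was not tested.

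The D-cyclin kinases differed from each other. Cdk6 measured 1.86, 2.57 and 2.34 FPKM in the PMN-MDSC samples and 3.71, 4.20 and 3.20 FPKM in the WT Mo-MDSC samples. The groups were apart and the log2 fold change was 0.69 (SE 0.17, adjusted p = 0.0166), although without WT Mo-MDSC replicate 1 or 2 the adjusted p was 0.0512 or 0.0596. In replicates 2 and 3 alone it was 0.56 on the log2 scale with adjusted p = 0.096. Cdk4 measured 62.1, 62.2 and 66.4 FPKM against 62.3, 67.4 and 63.2 FPKM. Its groups overlapped, and the log2 difference of 0.02 had a 95% interval from -0.15 to 0.18. Quantile normalization gave 0.25 (adjusted p = 0.0254), or 0.19 relative to the median of all genes, and rescaling to equal totals gave 0.46 (adjusted p = 0.00998), or 0.0076 relative to that median. Of 4 granulocyte and monocyte progenitor markers tested, Elane and Prtn3 were higher and Kit was lower in WT Mo-MDSCs. The sum of all 6 listed lay between 5.42 and 14.9 FPKM and between 22.2 and 36.5 FPKM, with 1 or 2 of the 6 under 1 FPKM throughout a group, and their part in Cdk6 was not tested. The ratio of Cdk4 to Cdk6 was 28.6 ± 4.57 in PMN-MDSCs and 17.5 ± 1.98 in WT Mo-MDSCs, with ranges apart (exact permutation p = 0.1).

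Ccne1 and Cdk2, which encode cyclin E1 and its kinase, did not pass the test as planned. Cdk2 measured 24.6, 22.1 and 27.2 FPKM in the PMN-MDSC samples and 31.8, 27.4 and 34.0 FPKM in the WT Mo-MDSC samples. The lowest WT Mo-MDSC sample was just above the highest PMN-MDSC sample, and the log2 fold change was 0.34 (SE 0.11, adjusted p = 0.0528). Cdk2 was called under 7 of 17 alternatives. The adjusted p was 0.00192 with the replicate block, 0.0481 with 1 FPKM required in every sample, 0.0331 with all 9 samples in 1 fit, 0.0343 without WT Mo-MDSC replicate 2 and 0.0471 without PMN-MDSC replicate 3. Quantile normalization gave a log2 fold change of 0.44 (adjusted p = 0.0123) and rescaling to equal totals 0.78 (adjusted p = 0.000665). With the block 8 members were called, 4 in each direction, beside 27.6% of genes called higher and 29.7% called lower. Ccne1 measured 6.72, 12.9 and 8.93 FPKM against 7.33, 15.6 and 9.12 FPKM. Replicate 2 was highest in both groups, and the log2 fold change of 0.14 (SE 0.32) lay within this spread. Within each pair of same-numbered samples the WT Mo-MDSC value was the higher, and with the block the SE of Ccne1 was 0.07 (unadjusted p = 0.0997, adjusted p = 0.143).

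The pocket proteins changed in both directions. Rbl1, which encodes p107, measured 8.74, 9.21 and 9.46 FPKM in the PMN-MDSC samples and 14.0, 12.4 and 12.7 FPKM in the WT Mo-MDSC samples. All WT Mo-MDSC samples were above all PMN-MDSC samples, and the log2 fold change was 0.51 (SE 0.08, adjusted p = 0.0032). Rb1 measured 24.8, 22.1 and 21.8 FPKM against 31.6, 28.1 and 29.2 FPKM. Its groups were apart as well, with a log2 fold change of 0.37 (SE 0.09, adjusted p = 0.0127), and without replicate 2 of both groups it was 0.39 with adjusted p = 0.0563. Rbl2, which encodes p130, the pocket protein prominent in resting cells, measured 25.6, 24.2 and 25.7 FPKM against 21.4, 19.5 and 19.7 FPKM. It was lower in all WT Mo-MDSC samples, with a log2 fold change of -0.32 (SE 0.07, adjusted p = 0.0139) that turned to 0.12 on values rescaled to equal totals. Without WT Mo-MDSC replicate 2 or 3 the adjusted p for Rbl2 was 0.0515 or 0.0563.

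**Figure D2:**
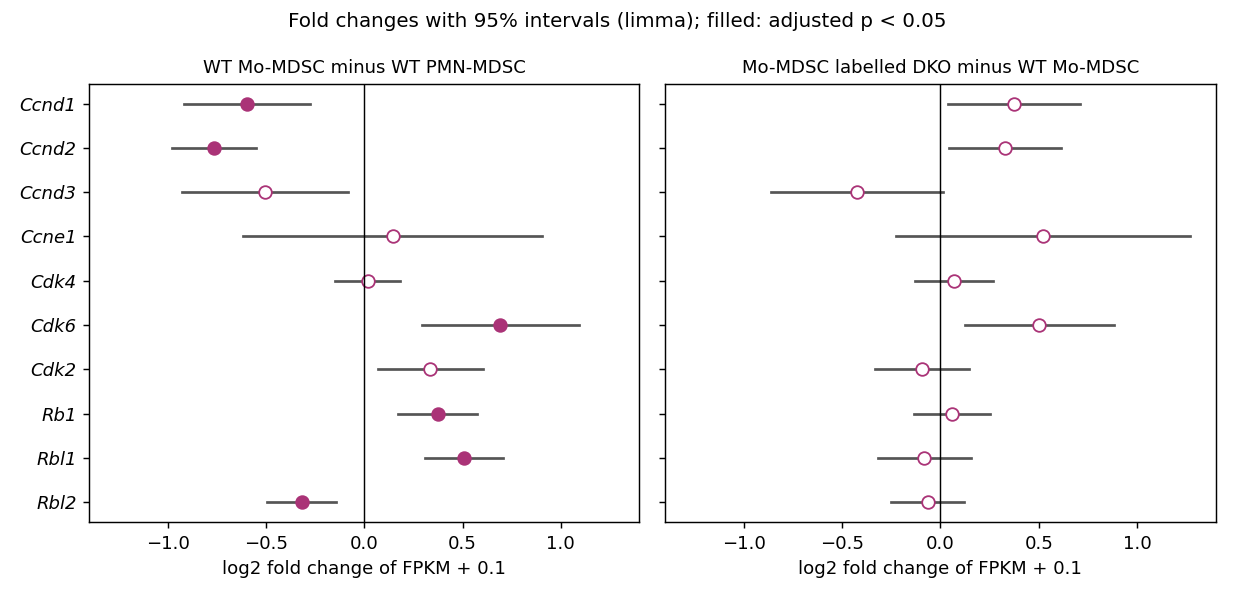
Log2 fold change of each member (point) with its 95% interval from limma (line), for WT Mo-MDSCs minus WT PMN-MDSCs on the left and Mo-MDSCs labelled DKO minus WT Mo-MDSCs on the right. Filled points passed adjusted p below 0.05, which holds for 6 members on the left and 0 on the right. On values rescaled to equal totals Rbl2 on the left turns to 0.12.

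The pocket proteins were also set against each other as shares of the summed FPKM of the family. Rbl2 made up 43.3, 43.6 and 45.1% of the family in PMN-MDSCs and 31.9, 32.5 and 31.9% in WT Mo-MDSCs. The difference of means was -11.9 percentage points, several times the SD of either group (0.97 and 0.301). Rb1 had mean shares of 40.0 ± 1.83% and 47.2 ± 0.322% in the same order. Rbl1 took 14.8, 16.6 and 16.6% of the family, then 20.9, 20.7 and 20.6%. Each of the 3 shares had ranges apart (exact permutation p = 0.1 each). These shares sum to 100% in a sample, so they are not separate results, and a scaling common to all genes of a sample does not alter them. The shares of the D-type cyclins differed less. Ccnd3 made up 78.8 ± 3.92% in PMN-MDSCs and 81.3 ± 3.53% in WT Mo-MDSCs, with overlapping ranges (exact permutation p = 0.5).

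**Figure D3:**
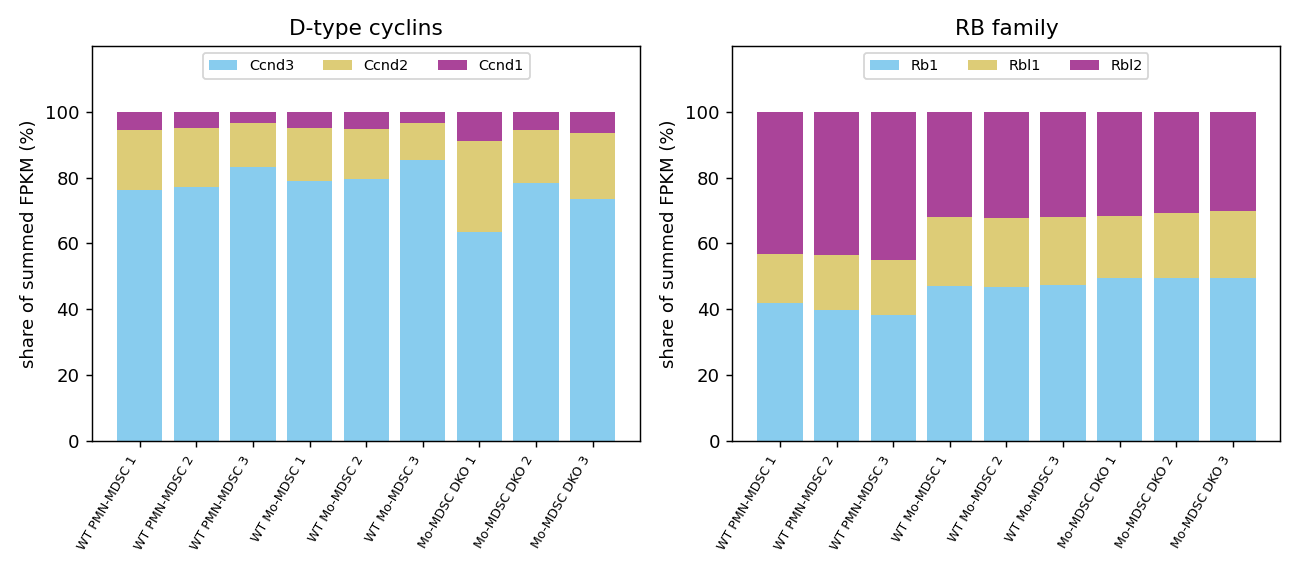
Share of each gene in the summed FPKM of the D-type cyclins (left) and of the RB family (right), 1 bar per sample, on an axis in percent. Rbl2 takes 43.3 to 45.1% of the RB family in PMN-MDSCs and 30.1 to 32.5% in the 6 Mo-MDSC samples.

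The other genes of the pathway were counted by lists. Among CDK inhibitors, 4 of 7 passed the filter and all 4 were called, 2 in each direction, where 39.1% of all genes were called in either direction. Cdkn1a was higher in WT Mo-MDSCs (log2 fold change 1.64, SE 0.19, adjusted p = 0.000667), as was Cdkn2c, which encodes the INK4 inhibitor p18 (0.31, SE 0.07). Cdkn2d, which encodes the INK4 inhibitor p19, was lower, with 140, 126 and 201 FPKM in the PMN-MDSC samples and 41.6, 42.9 and 63.3 FPKM in the WT Mo-MDSC samples (log2 fold change -1.66, SE 0.22). Cdkn1b, which encodes p27, was lower as well (log2 fold change -1.01, SE 0.15). Cdkn1c, Cdkn2a and Cdkn2b did not pass the filter.

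Of 9 other G1/S cyclins, kinases and activators tested, 0 were higher and 1 was lower, Cks2, a CDK-binding subunit (log2 fold change -0.89, SE 0.16). These counts and the next ones stand beside the 18.5% of all genes called higher and 20.6% called lower. Of 10 genes of cyclin turnover 1 was higher (Fbxo4, 0.34 on the log2 scale) and 3 were lower. The last were Fbxo31, a ubiquitin ligase subunit that targets cyclin D1 (log2 fold change -1.83, SE 0.12, from 18.3 to 24.2 FPKM against 5.35 to 6.13 FPKM), Fbxw7, which targets cyclin E (-0.36), and the kinase gene Gsk3b (-0.34). Of 10 E2F and DP genes 2 were higher, the activator E2f1 (log2 fold change 0.47, SE 0.12) and the repressor E2f6 (0.40, SE 0.11), a share near that of all genes. Of 7 genes of the MuvB core and its partners, Foxm1, a transcription factor of G2 and mitosis, was higher (0.83, SE 0.20) and the core subunit Lin54 was lower (-0.60, SE 0.12).

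Among 16 S-phase genes and 10 genes of G2 and mitosis, 0 were called, with median log2 fold changes of 0.08 and 0.28. At an unadjusted p below 0.05 there were 0 and 2, beside 48.3% of all genes, and the linear model without moderated variances called 0 of either. With the replicate block, which called 27.6% of all genes higher and 29.7% lower, 4 S-phase genes (Rrm2, Tk1, Cdt1 and Chaf1a) and 5 mitotic genes (Mki67, Top2a, Bub1, Plk1 and Ccnf) were called higher. The block also raised the E2F and DP count to 5 higher, by E2f4, E2f8 and Tfdp2, and the MuvB count to 3 higher and 2 lower, by Lin9, Mybl2 and Rbbp4. It raised the cyclin and kinase list to 3 higher (Ccne2, Ccna2 and Cdc25a) and cyclin turnover to 2 higher and 4 lower, by Skp2 and Skp1a. These genes are named because the block called them, after their values were seen.

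Upstream of the D-type cyclins, 4 of 8 receptor and transcription factor genes were lower in WT Mo-MDSCs and 1 was higher. Csf3r fell by 4.24 on the log2 scale, Csf2rb, the shared subunit of the GM-CSF, IL-3 and IL-5 receptors, by 0.91, Stat5b by 0.74 and Stat3 by 0.62. Stat5a, named here because it made up the count of 1, was higher by 0.43 on the log2 scale.

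**Figure D4:**
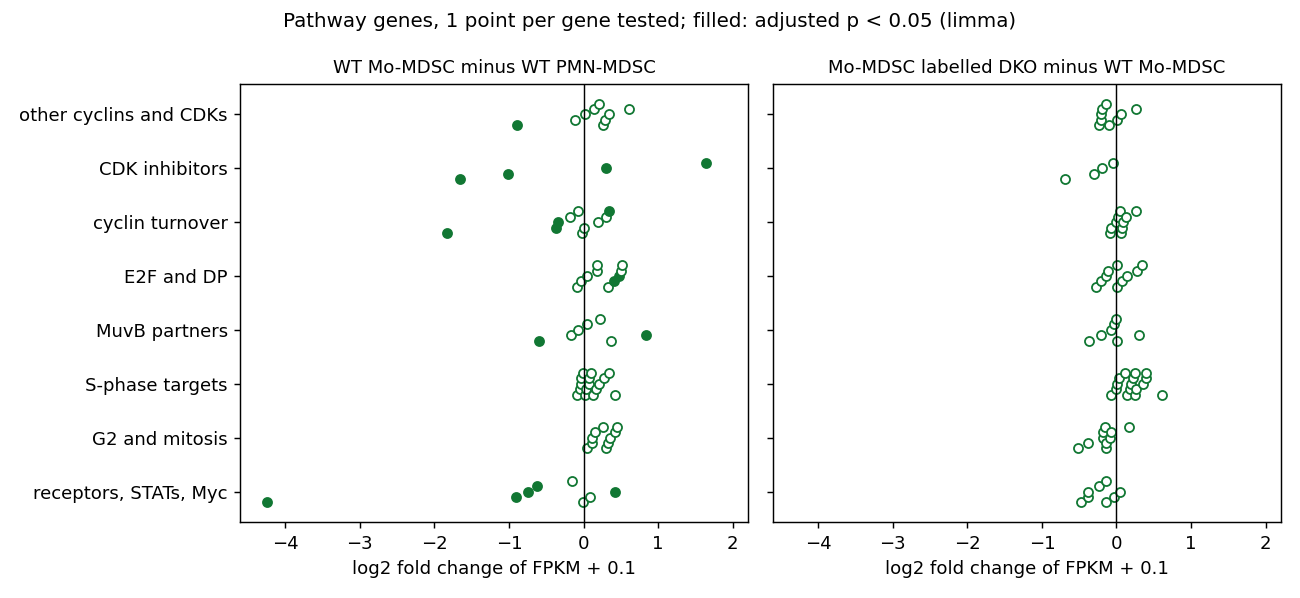
Log2 fold change of every pathway gene tested (1 point per gene) by list, for both comparisons, with filled points for adjusted p below 0.05 (limma). In WT Mo-MDSCs against PMN-MDSCs all 4 CDK inhibitors are filled and 0 S-phase genes are, and on the right 0 points are filled.

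The second comparison addressed the G1 machinery of Mo-MDSCs in mice labelled as lacking p16 and p21. By the adjusted p, 0 members were higher and 0 were lower in Mo-MDSCs labelled DKO, beside 0.166% of 11451 genes higher and 0.0873% lower. At an unadjusted p below 0.05 there were 3 members higher and 0 lower, beside 5.27% and 9.74% of all genes, and a linear model without moderated variances called 0 members and 0 genes in all. Those 3 members, Cdk6, Ccnd1 and Ccnd2, were also the 3 with ranges apart, beside 7.96% of genes apart and higher and 12.9% apart and lower. The median log2 fold change of the members was 0.06, beside -0.02 over all genes.

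Cdk6 measured 5.28, 4.45 and 6.20 FPKM in the samples labelled DKO, each above the highest WT Mo-MDSC value of 4.20 FPKM. The log2 fold change was 0.50 (SE 0.16, unadjusted p = 0.0157, adjusted p = 0.24, exact permutation p = 0.1). Ccnd1 measured 8.22, 6.86 and 6.47 FPKM, against a highest WT Mo-MDSC value of 6.38 FPKM. Its log2 fold change was 0.38 (SE 0.14, adjusted p = 0.293). Ccnd2 measured 25.2, 19.7 and 20.8 FPKM, above the WT Mo-MDSC maximum of 18.7 FPKM, with a log2 fold change of 0.33 (SE 0.12, adjusted p = 0.287). For both cyclins DKO-labelled replicate 1 was the highest, and without replicate 1 of both groups the log2 fold change was 0.27 for Ccnd1, 0.25 for Ccnd2 and 0.51 for Cdk6. In the same samples all 5 B-cell and all 5 macrophage markers had positive log2 fold changes, of which 0 were called, with medians of 0.25 and 0.22. Of 6 T-cell and 5 dendritic-cell markers 4 each were positive, with medians of 0.27 and 0.53. Most monocyte markers lay the other way, with 5 of 7 negative (median -0.48, 0 called) and Ly6c2, Ccr2, Cx3cr1 and Ms4a6c below the WT Mo-MDSC range. Irf8 lay above that range, at 142 to 151 FPKM against 134 to 141 FPKM. Ccr2 and Cx3cr1 are more than markers here. By flow cytometry the paper reports less CX3CR1 and CCR2 on splenic Mo-MDSCs of DKO mice. It also reports that the Mo-MDSC population of the spleen did not differ from that of WT mice. Of 4 progenitor markers tested 3 were negative (median -1.24, 0 called). Among them Elane lay at 0.815 to 2.37 FPKM against 2.40 to 7.43 FPKM and Prtn3 at 4.68 to 8.96 FPKM against 15.7 to 23.4 FPKM. Kit had a positive log2 fold change (0.23) and lay at 1.67 to 2.82 FPKM against 1.49 to 2.29 FPKM. The part of these cells was not tested.

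Ccnd3 lay lower, at 58.0, 96.2 and 75.1 FPKM, with 1 DKO-labelled sample inside the WT Mo-MDSC range. The log2 fold change was -0.42 (SE 0.19, adjusted p = 0.344). Ccnd3 lies on chromosome 17, as does Cdkn1a (chr17:29090976-29100727), and a part of DNA linked to the deleted gene was not tested. All 8 neutrophil markers had negative log2 fold changes, with a median of -1.34, and 0 were called, and their part in Ccnd3 was not tested. Ccnd3 held a smaller mean share of the D-type cyclins in the DKO-labelled samples, with 63.4, 78.4 and 73.4% against 79.1, 79.5 and 85.4%. The ranges did not overlap, the difference of means was -9.58 points (exact permutation p = 0.1), and without DKO-labelled replicate 1 it was -5.43 points. Ccnd1 took 6.97 ± 1.79% against 4.50 ± 0.915%, also with ranges apart (exact permutation p = 0.1), and Ccnd2 21.3 ± 5.83% against 14.2 ± 2.66%, with overlapping ranges (exact permutation p = 0.2). Without DKO-labelled replicate 1 the difference fell from 2.47 to 1.46 points for Ccnd1 and from 7.11 to 3.97 points for Ccnd2.

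The remaining kinases and the RB family showed small differences. Cdk4 differed by 0.07 on the log2 scale (95% interval -0.13 to 0.27), Cdk2 by -0.09 (-0.33 to 0.15), Rb1 by 0.06 (-0.13 to 0.25), Rbl1 by -0.08 (-0.32 to 0.15) and Rbl2 by -0.06 (-0.25 to 0.12). The bound farthest from 0 among these 5 intervals was -0.33. Of the RB family shares, that of Rb1 varied little within either Mo-MDSC group. Rb1 took 49.5, 49.4 and 49.4% in the samples labelled DKO and 47.2, 46.8 and 47.5% in WT Mo-MDSCs, a difference of 2.28 points. The shares of Rbl1 and Rbl2 were lower by 1.04 and 1.24 points, close to their SDs of 0.979 and 0.900 points in the DKO-labelled group. Each had ranges apart (exact permutation p = 0.1 each), and the Rbl1 difference was -0.496 points without DKO-labelled replicate 1.

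Of the 74 genes tested in the 8 pathway lists, 0 were called by limma in this comparison, 0 by the linear model without moderated variances, and 5 had an unadjusted p below 0.05, beside 15.0% of all genes. The 4 CDK inhibitors tested all had negative log2 fold changes, with a median of -0.25. Of the 16 S-phase genes 14 had positive values (median 0.20), and of the 10 genes of G2 and mitosis 9 had negative values (median -0.15), beside a median of -0.02 over all genes. The ranges of the 2 groups overlapped for every gene of both lists. The summed FPKM of the S-phase genes was 400, 683 and 652 in DKO-labelled replicates 1 to 3 and 398, 609 and 469 in WT Mo-MDSC replicates 1 to 3. At the level of single samples, Cdkn2d measured 26.9, 35.5 and 28.1 FPKM in the samples labelled DKO, below the lowest WT Mo-MDSC sample at 41.6 FPKM. Stat3, Stat5b, Csf2rb and Cdkn1c, the last not past the filter, were also below the WT Mo-MDSC range, and E2f6 was above it. Over all genes tested, 12.9% were apart and lower and 7.96% apart and higher.

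Relative to its mean, Ccne1 varied most of the 10 members between samples of each group, with coefficients of variation of 32.8% in PMN-MDSCs, 40.7% in WT Mo-MDSCs and 31.1% in the samples labelled DKO. It measured 9.72, 17.7 and 18.0 FPKM in the samples labelled DKO, and the log2 fold change against WT Mo-MDSCs was 0.52 (SE 0.32, adjusted p = 0.478), the largest of the 10 on the deposited scale and not called. Cdk6 exceeded it without replicate 2 of both groups (0.71 against 0.69), without DKO-labelled replicate 2 (0.62 against 0.38) or replicate 3 (0.39 against 0.37) and without WT Mo-MDSC replicate 1 (0.51 against 0.29). Without DKO-labelled replicate 3, Ccnd1 (0.45) and Ccnd3 (-0.43) were larger in size than Cdk6. Ccnd3 (-0.52) was also larger in size than Cdk6 without WT Mo-MDSC replicate 1. The DKO-labelled replicates 2 and 3 and WT Mo-MDSC replicate 2 were the 3 highest samples, and replicate 1 of PMN-MDSCs was the lowest. Klf1, the erythroid transcription factor, measured 12.2, 31.9 and 15.8 FPKM in the PMN-MDSC samples, 10.4, 34.7 and 12.8 FPKM in the WT Mo-MDSC samples and 13.6, 40.3 and 35.5 FPKM in the samples labelled DKO. The replication licensing gene Mcm2 measured 18.9, 32.3 and 22.1 FPKM, then 18.5, 32.1 and 21.1 FPKM, then 19.5, 39.0 and 38.3 FPKM. Both genes were thus high in the same samples as Ccne1. The other erythroid genes followed Ccne1 less closely. Hba-a1, an alpha globin, measured 1178, 2656 and 1633 FPKM, then 1110, 2529 and 1519 FPKM, then 1327, 2224 and 1655 FPKM. Alas2, the erythroid enzyme that starts haem synthesis, measured 63.1, 138 and 79.0 FPKM, then 66.9, 150 and 85.6 FPKM, then 92.7, 124 and 100 FPKM. In DKO-labelled replicate 3, the highest Ccne1 sample, neither reached its value in WT Mo-MDSC replicate 2. Against WT Mo-MDSCs the log2 fold changes in the samples labelled DKO were 0.69 for Klf1, 0.07 for Hba-a1 and 0.14 for Alas2, with 0 called. The summed FPKM of 4 erythroid genes ranged from 1253 to 2826 in PMN-MDSCs, from 1188 to 2713 in WT Mo-MDSCs and from 1433 to 2389 in the samples labelled DKO, with Hba-a2 at under 1 FPKM, and the part of erythroid cells in Ccne1 was not tested. Without replicate 2 of every group the log2 fold changes of Ccne1 were 0.08 between the WT groups and 0.69 for DKO-labelled against WT Mo-MDSCs.

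**Figure D5:**
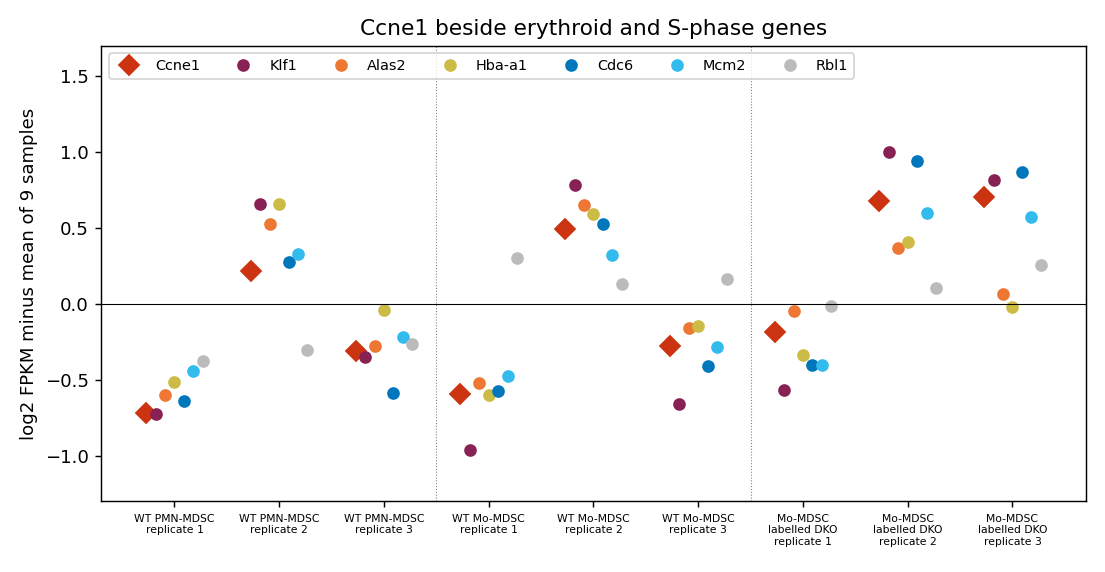
Log2 FPKM minus the mean of the 9 samples, for Ccne1 (diamonds), the erythroid genes Klf1, Alas2 and Hba-a1, the S-phase genes Cdc6 and Mcm2 and, for contrast, Rbl1, in every sample. Ccne1, Klf1 and the S-phase genes stand highest in replicate 2 of both WT groups and in DKO-labelled replicates 2 and 3, whereas Alas2 and Hba-a1 stand near their mean in DKO-labelled replicate 3.

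The genes most like the member with the largest log2 fold change on the deposited scale in each comparison were sought over the 9 samples among 11726 genes. For Ccnd2 they were Dnase1l3 (Pearson r = 0.985, Spearman rho = 0.983), Slc25a33 (r = 0.977, rho = 0.9), Igsf10 (r = 0.976, rho = 0.983), Cd14 (r = 0.968, rho = 0.983) and Irgm2 (r = 0.967, rho = 0.95). Cd14 is the monocyte and macrophage receptor for lipopolysaccharide. For Ccne1 they were Ifrd2 (r = 0.994, rho = 0.983), Ank1 (r = 0.99, rho = 1), Add2 (r = 0.99, rho = 0.983), Slc43a3 (r = 0.989, rho = 0.967) and Samd14 (r = 0.989, rho = 0.983). Ank1 and Add2 encode proteins of the red-cell membrane skeleton. The 9 points share the spleen preparations and fall in 3 groups, so these values describe likeness and carry no test.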

How the data were processed

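Libraries were made with a stranded mRNA kit. The authors aligned the single-end reads to mm10 (TopHat2 2.0.13, Bowtie2 2.2.3 and SAMtools 0.1.19 in the submitters' processing notes) and deposited FPKM values from Cuffnorm 2.2.1, 1 table per sample. The annotation and the strand setting are not given in the sources used here. Opposite-strand genes overlap Ccnd2, Ccnd3, Cdk2, Cdk4, Rb1 and Rbl2, of which Tspan31 at Cdk4 was the most abundant (25.8 to 51.2 FPKM).

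FPKM values are not counts and the depth in reads is unknown. Values were used as deposited, as log2(FPKM + 0.1), so that fold changes of low genes are understated. A gene entered a comparison when 3 or more of its 6 samples reached 1 FPKM. The fit used limma 3.58.1 in R 4.3.3 (lmFit and eBayes with a trend, two-sided), without covariates, and a gene was called at a Benjamini-Hochberg adjusted p below 0.05 over all genes tested. The fit was tested on simulated data. Shares and ratios were compared by exact permutation of the 6 samples. Replicate numbers paired the WT Mo-MDSC and PMN-MDSC samples, since the deviations of same-numbered samples from their group means correlated at 0.294, 0.483 and 0.2, so values with a replicate block are given where they change a call. The labels do not state what a shared number means. Relative depth was read from the smallest steps of low genes.

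The members and the gene lists were chosen with earlier results of these data known. The genes named are the 10 members, Cdkn1a and Cdkn2a, at most 4 called genes per pathway list by size of change, the 5 nearest genes by Pearson correlation for the member with the largest change in each comparison, and markers beside a result. Alternatives were no filter on low values and a stricter one, another pseudocount, 1 fit of all 9 samples, other scalings, unmoderated variances, the block, replicates 2 and 3 only and leaving out each sample. Leaving out replicate 2 of every group was added after seeing the data. 1 erythroid marker is not reported here.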

Additional observations from a re-analysis of the deposited data

How the results depend on the processing

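Between WT Mo-MDSCs and PMN-MDSCs, whose totals differed, rescaling each sample to the same total called 6880 genes (5916 higher, 964 lower) against 4492 (2121 higher, 2371 lower) as deposited. Quantile normalization gave 2509 higher and 2064 lower. On the rescaled values 5 members were called higher (Cdk6, Rbl1, Rb1, Cdk2 and Cdk4) and 0 lower, Rbl2 turned to 0.12, and Ccnd1 and Ccnd2 were at -0.16 and -0.32. Quantile normalization called 5 members higher, and Ccnd1, Ccnd2 and Rbl2 lower. Replicates 1 and 3 only called 1 member higher (Rbl1), and Ccnd1 and Ccnd2 lower, beside 1385 of 11543 genes called higher and 1838 called lower. Replicates 2 and 3 only called 2960 genes. Rbl1 was called higher under all 17 alternatives and Ccnd2 lower under 16. Cdk4 turned to -0.0328 with replicates 1 and 3 only and ranged from -0.0173 to 0.0486 with 1 sample left out, and Ccne1 ranged from -0.16 to 0.39. The difference in Ccnd1 share of D-type cyclins between the WT groups, -0.20 points, was 0.112 points in replicates 2 and 3 and ranged from -0.799 to 0.318 with 1 sample left out.

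For Mo-MDSCs labelled DKO against WT, 0 members were called under any of the 17 alternatives. The count of all genes, 29, was 13 without a filter, 51 with all 9 samples in 1 fit, 0 without moderated variances, 12 with replicates 2 and 3, 16 with replicates 1 and 3, and 4 to 23 with 1 sample left out. The replicate block gave 20, and the median SE of all genes was 0.106 with it and 0.122 without it. Here same-numbered samples correlated at 0.348, 0.226 and -0.07. By this measure the numbers paired replicates 1 and 2 but not replicate 3. Rescaling shifted the median of all genes from -0.02 to 0.14 and turned Cdk2 to 0.0625, Rbl1 to 0.0743 and Rbl2 to 0.092, and replicates 2 and 3 turned Rbl1 to 0.034. The cause of these changes was not tested. The block changed no call other than those given with the results. With 1 sample left out, the remaining samples carry the estimate of spread. Depth in reads is unknown, so no counting interval could be given.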
